A study of Mus musculus with 19 samples.

Results

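The genes described here encode subunits of the mitochondrial oxidative phosphorylation machinery and were chosen by symbol: those starting with Ndufa, Ndufb, Ndufc, Ndufs, Ndufv, Uqcr, Cox4i, Cox5, Cox6, Cox7, Cox8 or Atp5, with Sdha, Sdhb, Sdhc, Sdhd and Cyc1, and without the Ndufaf assembly factors. The rule found 86 of the 24062 genes of the bulk count table. Of these, 36 belong to complex I, 4 to complex II, 9 to complex III, 19 to complex IV and 15 to complex V. The other 3 are Cox7a2l, a factor of respiratory supercomplexes, and Atp5s and Atp5sl, which share the symbol stem but are not subunits. The complex IV group includes Ndufa4, which was named as a complex I gene and is now placed in complex IV, and its relative Ndufa4l2.

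Complexes I and II pass electrons from NADH and succinate to ubiquinone, complex III passes them to cytochrome c and complex IV to oxygen. The proton gradient built on the way drives complex V, the ATP synthase. Most subunits are encoded in the nucleus and a few in mitochondrial DNA, and several nuclear subunits of complex IV have tissue-specific isoforms. In the colon, absorptive colonocytes draw much of their energy from oxidising butyrate made by gut bacteria.

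RNA was sequenced from 15 bulk libraries and 1 single-cell library of mouse gut epithelium. The 3 wild-type stem cell libraries and the 2 libraries of regenerating cells came from adult colon of Ascl2(mCh); Lgr5Dtr-Egfp+ mice, in which mCherry reports Ascl2, which encodes a transcription factor known from intestinal stem cells, and cells expressing Lgr5 carry GFP and the diphtheria toxin receptor. Regenerating cells arose after the stem cells had been killed with the toxin (50 ug/kg, 4 injections). The 2 Ascl2 KO libraries came from Ascl2Fl/Fl; Lgr5EGFP-Cre+ mice given tamoxifen (2 mg on the first 2 days, then 1 mg), so the deletion is limited to cells that expressed the Lgr5-driven Cre. Adult mice had a mixed C57BL/6 and 129/Sv background. Genotype, reporter, tamoxifen and sort therefore differ together between KO and wild-type libraries and cannot be told apart. Wild-type CD1 hindgut gave 2 libraries of sorted Epcam-positive cells at each of embryonic days 11, 12, 14 and 16 (E11 to E16 below). A 10x library, the only one of single cells, held mCherry-positive, GFP-negative cells on day 8 of regeneration. Ages of adult mice are not given in the sources used here, and nothing states that adult replicates came from separate animals, so p-values measure the spread between these samples.

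Bulk libraries held between 13826958 and 30583908 counts assigned to genes. Levels below are CPM, counts scaled to a common library total after TMM normalisation, and a gene was called where edgeR's quasi-likelihood test gave a Benjamini-Hochberg adjusted p below 0.05 over all genes of a comparison. Ascl2 was at 110, 151 and 104 CPM in wild-type, 85.7 and 57.0 CPM in regenerating and 53.8 and 59.2 CPM in KO libraries, which lay under all wild-type values and overlapped the regenerating ones. Reads over the whole gene were counted, and which part was deleted is not given in the sources used here. Simple epithelium markers summed to 13549 to 20027 CPM in adult and 3297 to 8528 CPM in hindgut libraries, with none of the 7 at 0 in any group. Lower RNA of a cell type in bulk can mean fewer such cells or less RNA per cell, which cannot be told apart.

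Low counts left 6 members out of the adult tests (Cox4i2, Cox6a2, Cox7b2, Cox8c, Ndufa4l2 and Ndufs5) and 5 out of the hindgut tests (Cox6a2, Cox7b2, Cox8b, Cox8c and Ndufs5). Thus 80 of 86 members were tested in adult and 81 in hindgut libraries. Ndufs5, an accessory subunit of complex I, had 0 counts in all 15 bulk libraries and 18548 UMIs (unique molecular identifiers, 1 per captured RNA molecule) in single cells. Atp5l, subunit g of the ATP synthase, had 21 to 569 counts per bulk library but 64734 UMIs in single cells. In adult bulk libraries Cox7c lay between 6.28 and 52.6 CPM and Atp5g2 between 0.27 and 3.35 CPM, against 1168 and 973 CPM in single cells. Reads with more than one alignment were counted apart in the deposited table, so bulk levels of these 4 genes are uncertain. The 13 subunits encoded in mitochondrial DNA were not analysed in bulk.

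The first comparison asked whether cells that rebuild the stem cell pool differ from resting stem cells in these genes. Together, the members summed to 37843, 31386 and 39389 CPM in wild-type and to 39205 and 34811 CPM in regenerating libraries. The ranges overlap almost completely. No member was called between regenerating and wild-type cells, where 0.331% of all 13911 genes tested were (0.302% higher and 0.0288% lower). DESeq2 called 0 members as well, where it called 2.67% of all genes. The median log2 fold change of the members was -0.03, beside 0.01 for all genes.

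Single subunits are set out here by library, and none of them was called. Sdha, the flavoprotein of complex II, was at 377 and 425 CPM in regenerating and at 501, 358 and 476 CPM in wild-type cells. Cox5a, a core-associated subunit of complex IV, was at 704 and 718 CPM against 898, 807 and 1117 CPM (log2 fold change -0.40 ± 0.24 SE, adjusted p = 0.675 by edgeR). The values of Sdha overlap and those of Cox5a do not, and neither difference passed the adjusted threshold. Cox7a1, the isoform known from heart and skeletal muscle, was at 35.8 and 34.5 CPM against 18.1, 14.6 and 35.6 CPM. Cox8b, another muscle isoform, had 89 and 60 counts in regenerating and 0, 3 and 6 counts in wild-type libraries (unadjusted p = 0.0375, adjusted p = 0.426 by edgeR). These libraries differed in markers of cell types. Of 8 deep crypt secretory genes 7 rose, where 0.302% of all genes did, and the list summed to 31575 to 47723 CPM against 2605 to 5154 CPM. Stem cell markers summed to 674 to 747 against 990 to 1347 CPM. Enteroendocrine markers summed to 35.7 to 61.6 against 75.5 to 178 CPM, and tuft cell markers to 5.20 to 7.93 against 65.5 to 96.7 CPM. Sums of goblet cell, colonocyte, mitotic and S phase markers overlapped. The part of these shifts in the members' values was not tested.

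The second comparison set the Ascl2 KO libraries against those of wild-type stem cells. The members summed to 186947 and 166710 CPM in the KO libraries, against 31386 to 39389 CPM in wild-type cells, and made up 11.5% and 10.99% of all gene counts against 4.13% to 4.78%. Of 80 members, 67 rose and 4 fell, while 18.8% and 17.4% of all genes tested rose and fell (36.2% in either direction). The median log2 fold change was 2.67 for members and -0.02 for all genes. Thus most subunit genes were several-fold higher in KO cells, and a few lay far below the rest.

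**Figure D1:**
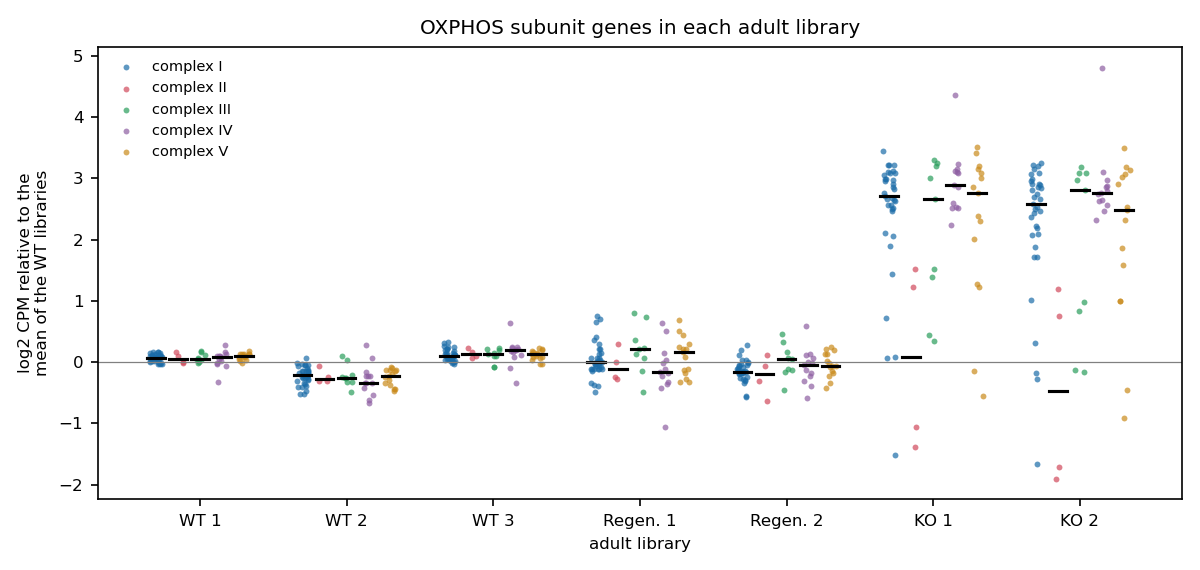
Each point is 1 subunit gene in 1 adult library, as log2 CPM (0.5 CPM added) relative to the mean of the 3 wild-type (WT) libraries, coloured by complex, with a black line at each complex's median in that library (Cox8b, near 0 counts, is left out). In both KO libraries most points of complexes I, III, IV and V sit between 2 and 3.5, while complex II is split around 0.

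Complex I takes electrons from NADH through the flavin-binding Ndufv1 and the chain of iron-sulfur clusters in Ndufs1 and its neighbours. Of its 35 tested genes 31 rose and 1 fell, with a median log2 fold change of 2.68. Ndufc1, a small membrane subunit, was at 2108 and 1801 CPM in KO and at 216, 146 and 214 CPM in wild-type cells. Its rise was 10.2-fold (log2 3.35 ± 0.24 SE, adjusted p = 5.42e-05 by edgeR), and the groups lay far apart. Ndufs1, the largest subunit of the complex, went the other way. It was at 48.7 and 43.6 CPM in KO and at 145, 123 and 151 CPM in wild-type cells, a 3.03-fold fall (log2 -1.60 ± 0.21 SE, adjusted p = 0.000494). Ndufv1 was at 453 and 352 CPM against 431, 424 and 424 CPM and was not called (adjusted p = 0.782). Within 1 complex, therefore, genes rose, fell and stayed within the spread.

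Complex II, succinate dehydrogenase, is also an enzyme of the TCA cycle and has all its subunits encoded in the nucleus. Its 4 genes split evenly, with 2 up and 2 down. Sdha was at 171 and 119 CPM in KO and at 501, 358 and 476 CPM in wild-type cells (log2 -1.62 ± 0.25 SE, adjusted p = 0.00134). Sdhc, a membrane anchor, was at 184 and 117 CPM against 383, 366 and 403 CPM (log2 -1.35 ± 0.25 SE, adjusted p = 0.00310). Neither gene's groups overlap. Sdhb, the iron-sulfur subunit, was at 2002 and 1606 CPM against 745, 561 and 787 CPM and rose 2.58-fold (adjusted p = 0.00194). Sdhd, the other membrane anchor, rose 2.02-fold, from 610 to 843 CPM up to 1216 and 1698 CPM (adjusted p = 0.00894 by edgeR). Its call was lost without KO replicate 1 (adjusted p = 0.0892). The flavoprotein and 1 anchor thus fell while the iron-sulfur subunit and the other anchor rose.

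Complex III carries electrons through the Rieske protein Uqcrfs1 and cytochrome c1, encoded by Cyc1. Of its 9 genes 7 rose and none fell (median 2.74). Cyc1 was at 2163 and 1476 CPM in KO and 852, 841 and 779 CPM in wild-type cells (log2 1.14 ± 0.23 SE, adjusted p = 0.00441). Uqcrfs1 was at 1574 and 1094 CPM against 601, 461 and 591 CPM (log2 1.28 ± 0.23 SE, adjusted p = 0.00270). Both catalytic genes lay above wild type in both libraries, by less than the median gene of the complex. Uqcrc1, a core subunit, was at 1338 and 887 CPM against 975, 1057 and 929 CPM. Those ranges overlap and the gene was not called (adjusted p = 0.592).

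Complex IV reduces oxygen, and 13 of its 14 tested genes rose, with none falling (median 2.88). Cox7a1 showed the largest fold change of all members. It was at 477 and 653 CPM in KO and at 18.1, 14.6 and 35.6 CPM in wild-type cells, a 24.8-fold rise (log2 4.63 ± 0.38 SE, adjusted p = 5.94e-05). Its widespread partner Cox7a2 rose 8.01-fold, from 441 to 644 CPM up to 4911 and 4072 CPM. The other common isoforms moved alike: Cox4i1 rose 4.88-fold, Cox5a 7.57-fold, Cox6a1 8.25-fold, Cox6b1 7.10-fold, Cox8a 8.37-fold and Ndufa4 7.68-fold. Cox6b2, the isoform known from testis, was at 42.0 and 42.8 CPM against 6.75, 8.42 and 5.25 CPM (adjusted p = 0.00150), so common and rare isoforms rose together.

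Complex V makes ATP, and 12 of its 15 genes rose and 1 fell (median 2.63). Atp5k, subunit e of the membrane part, was at 2350 and 2473 CPM in KO and at 239, 161 and 256 CPM in wild-type cells, a rise of 3.46 ± 0.24 SE on the log2 scale (adjusted p = 5.42e-05). Atp5g1 and Atp5g3 encode the same mature ring protein, subunit c, and rose 9.51-fold and 6.54-fold. The third gene for it, Atp5g2, lay under 4 CPM in every adult library. Atp5l rose 9.57-fold from 4.09 to 6.00 CPM, on the low counts given above. Atp5b, the catalytic beta subunit, was at 2391 and 1851 CPM in KO and at 3695, 3197 and 3601 CPM in wild-type cells (log2 -0.72 ± 0.22 SE, adjusted p = 0.0303). This fall missed the threshold without KO replicate 2 (adjusted p = 0.169), wild-type replicate 1 (0.0946) or wild-type replicate 3 (0.0694). Atp5a1, the alpha subunit, was at 1870 and 1512 CPM against 2108, 1940 and 2165 CPM and was not called (adjusted p = 0.3001). Atp5a1 and Sdhd were singled out after their values were seen.

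Uqcrc2, Ndufa10, Atp5g2, Cox8b and Atp5sl were also not called. Leaving out each of the 7 adult libraries in turn kept 64 of the 67 rises and 3 of the 4 falls throughout. With scaling by library size alone, under which the median of all genes shifted to -1.001, the count was 59 up and 10 down and the members' median was 1.69. Under it Sdhb (log2 0.39), Uqcrfs1 (0.29), Cyc1 (0.15) and Sdhd (0.03) were no longer called, and Atp5a1 (-1.28), Ndufv1 (-1.07) and Uqcrc1 (-0.82) were called lower, so the direction of the members near the middle depends on the scaling.

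Change in the KO cells went along with gene span, the distance between a gene's start and end in RefSeq GRCm38.p6. All genes were divided by span into 5 bins of equal number. Their median log2 fold change was 0.98 in the bin of shortest genes (up to 7130 bp) and between -0.02 and -0.38 in each longer bin. The 39 members among the shortest genes had a median of 2.84, the 26 in the next bin 2.65 and the 12 in the bin after that 1.13. Risen members had a median span of 6872 bp (range 1154 to 100300 bp) and the 4 fallen ones of 24735 bp (range 7082 to 33231 bp). The only member among the longest genes, Ndufs4, rose by 2.10 on the log2 scale, against the trend, and is named after its value was seen. The Spearman correlation of span with log2 fold change was -0.54 across the 80 members and -0.16 across 13847 genes, which share the same libraries. With an offset that removed the trend over span, added after the data were seen, 66 members rose and 5 fell, and the members' median was 2.11. Under it Cyc1 was at 0.02 on the log2 scale (adjusted p = 0.956) and Cox6b2 at 0.85, neither of them called, and Ndufv1 was called lower (log2 -0.61). Span is not transcript length, and the part of length in these changes was not tested further.

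**Figure D2:**
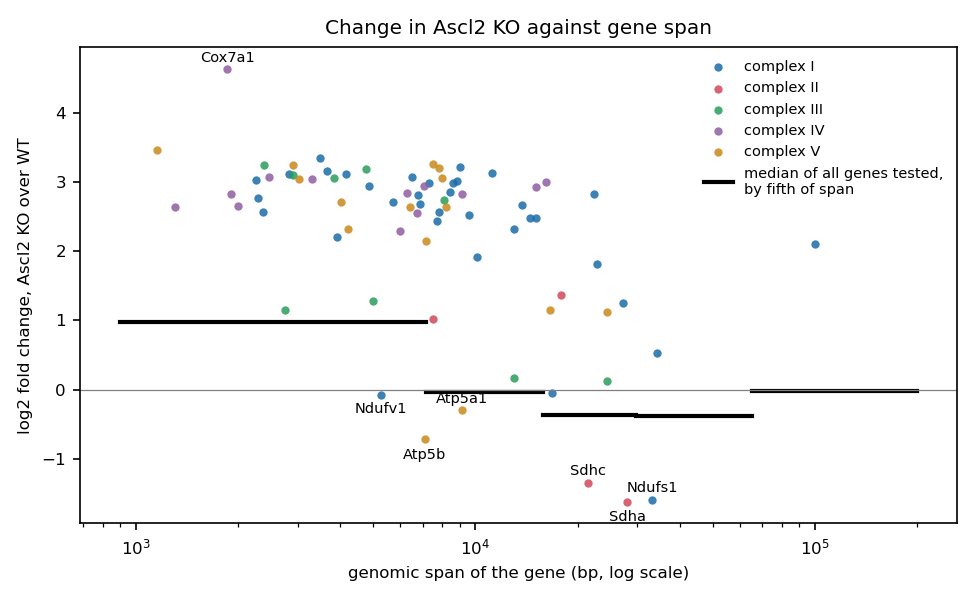
Each point is 1 subunit gene, with its genomic span in bp on a log axis and its log2 fold change in Ascl2 KO over wild type, coloured by complex; black lines are medians of all genes tested in 5 equal bins of span, with the outer bins drawn over part of their range (Cox8b is left out). Most members of shorter span lie above the line of all genes, and Sdhc, Sdha and Ndufs1 lie below it at 21484 to 33231 bp.

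Other values also moved with the KO libraries, and calls in marker lists stand beside 18.8% of all genes up and 17.4% down. Reads aligning to several places made up 51.2% and 51.4% of reads against 39.1% to 40.2% in wild type, and TMM factors were 0.616 and 0.660 against 1.21 to 1.32. Of 9 tested immune markers 4 rose, the list summing to 564 to 1042 CPM against 1.08 to 34.5 CPM, with 2 of the 10 listed markers at 0 in wild type, Csf1r among them, and none at 0 in KO. Of 7 tested stromal markers 5 rose (117 to 210 against 2.75 to 5.69 CPM, with Col1a2, Lum and Pdgfra at 0 in wild type). Colonocyte markers summed to 18832 to 26074 CPM against 2573 to 16554 CPM, with 2 of 12 called up, a share near that of all genes. Stem cell markers fell in 8 of 10. Mitotic markers summed to 1975 to 2879 against 1087 to 1681 CPM, and S phase markers, with overlap, to 957 to 962 against 754 to 1552 CPM. Deep crypt secretory markers rose in 5 and fell in 1 of 8 (28340 to 37905 against 2605 to 5154 CPM). Goblet cell markers summed to 12005 to 16303 against 557 to 3702 CPM (2 of 7 up), and enteroendocrine markers to 1736 to 2283 against 75.5 to 178 CPM (2 of 9 up). Tuft cell markers fell in 5 of 8 (13.8 to 24.3 against 65.5 to 96.7 CPM). The part of these shifts in the subunit genes was not tested.

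Related mitochondrial gene lists did not all move like the subunits, and their counts stand beside 18.8% of all genes up and 17.4% down. Assembly factors of the complexes rose in 21 and fell in 2 of 43 genes tested. Cox20 and Pet100, both needed to build complex IV, rose by 2.95 and 2.94 on the log2 scale, and Acad9, needed for complex I, fell by 1.97. Mitochondrial ribosomal proteins, which translate the subunits encoded in mitochondrial DNA, rose in 61 and fell in 2 of 77, led by Mrps21 (log2 3.07). The TCA cycle went the other way, with 9 of 14 enzymes lower and 2 higher: Dld fell by 1.44, and Mdh2 rose by 0.92. In glycolysis 4 of 19 fell, a share near the 17.4% of all genes, among them Pfkl (log2 -2.14). Only 1 of the 19 rose, the hexokinase gene Hk2 (log2 3.94), a smaller share than the 18.8% of all genes. Factors of mitochondrial DNA expression and biogenesis rose in 2 and fell in 5 of 18, with the polymerase genes Polg and Polrmt at -2.19 and -2.06. Atpif1, an inhibitor of the ATP synthase, rose by 3.07.

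Upstream sequence was examined because the subunit genes moved both together and apart. RefSeq promoters (GRCm38.p6) were found for 67 of 86 members, and 250 bases before the start were searched on both strands. The NRF1 motif, GCGC repeated after 2 bases of any kind, was in 14 members (20.9%, against 5.09% of 27025 promoters), and the ETS motif of GABP, CCGGAAG, in 11 (16.4%, against 7.05%). NRF1 and GABP are known regulators of respiratory chain genes. The ERR half-site AAGGTCA was in 5 (7.46%, against 4.05%) and the E-box CAGCTG in 6 (8.96%, against 12.8%), and the YY1 letters AAGATGGC were in 0 (against 1.59%). Among members that rose in KO cells, 11 of 58 with a promoter held the NRF1 motif and 11 the ETS motif; of the 2 fallen members with one, 1 held the NRF1 motif. The 27025 promoters were not limited to genes tested here, and no set of genes of like expression was compared. A match is a description of letters and not a bound site.

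The 6 sequences below were chosen to show NRF1 letters upstream of members that rose and of 1 that fell, and the upstream sequence of the strongest riser, whose 250 searched bases (110 are shown) held none of the 5 motifs. They end at the base before the start, run 5′ to 3′ in the gene's sense, and have NRF1, ETS (here as its complement CTTCCGG) or E-box letters in capitals. Cox6a1 (chr5:115348959-115349123, minus strand), Sdhd (chr9:50603850-50603939, minus) and Atp5h (chr11:115419920-115420064, minus) rose. Sdha (chr13:74350241-74350350, minus) fell, with 3 NRF1 matches and no ETS match. The risers Atp5k and Ndufa11, not shown, also held NRF1 letters without ETS letters, so this is not particular to Sdha. Cox7a1 (chr7:30184061-30184170, plus) rose most and Atp5b (chr10:128083257-128083306, plus) fell.
Cox6a1: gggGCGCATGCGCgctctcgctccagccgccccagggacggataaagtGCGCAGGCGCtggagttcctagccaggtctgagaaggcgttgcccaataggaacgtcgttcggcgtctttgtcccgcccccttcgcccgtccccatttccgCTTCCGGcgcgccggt
Sdhd: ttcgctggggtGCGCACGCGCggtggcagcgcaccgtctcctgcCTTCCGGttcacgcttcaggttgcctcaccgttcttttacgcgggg
Atp5h: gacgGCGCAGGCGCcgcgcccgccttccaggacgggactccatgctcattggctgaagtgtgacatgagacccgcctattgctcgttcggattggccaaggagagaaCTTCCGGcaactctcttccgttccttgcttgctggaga
Sdha: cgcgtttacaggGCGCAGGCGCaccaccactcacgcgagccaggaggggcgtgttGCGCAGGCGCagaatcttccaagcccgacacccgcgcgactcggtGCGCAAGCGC
Cox7a1: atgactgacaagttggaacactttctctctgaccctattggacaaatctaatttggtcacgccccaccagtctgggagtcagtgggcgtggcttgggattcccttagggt
Atp5b: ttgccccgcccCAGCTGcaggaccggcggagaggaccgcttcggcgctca

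Set against regenerating cells, the same 2 KO libraries gave 67 members up and 4 down, with 15.4% and 16% of all genes up and down (31.4% in either direction) and a members' median of 2.61. As both comparisons share the KO libraries, they are not independent. Cox7a1 was 16.1-fold higher than in regenerating cells and 24.8-fold higher than in wild-type cells. Atp5k was 12.6-fold, Uqcrb, a small subunit of complex III, 12.5-fold and Ndufc1 11.1-fold higher than in regenerating cells (adjusted p = 0.000205 for each, edgeR). Ndufs1 was 3.15-fold and Sdha 2.77-fold lower (adjusted p = 0.000785 and 0.00344). Sdhc and Atp5b were called lower (adjusted p = 0.0289 and 0.0337), calls that each failed without KO replicate 2 (0.158 for both) or regenerating replicate 1 (0.160 and 0.159). Without either wild-type replicate 1 or 3 or regenerating replicate 2, the Atp5b call failed as well (adjusted p of 0.0637, 0.0531 and 0.0664).

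The hindgut series followed the same genes through development. At E11 the members summed to 24854 and 22199 CPM, and at E12 to 20289 and 20219 CPM. The sums were 14848 and 15491 CPM at E14, then 17696 and 19569 CPM at E16. The sums were lowest at E14 and higher again at E16, with no overlap between neighbouring ages. Reads aligning to several places followed a like course. They made up 34.2% and 35.3% of reads at E11, 32.4% and 32.7% at E12, and 28.4% and 28.7% at E14. At E16 they made up 34.9% and 38.3%. The part of these reads in the members' sums was not tested. In an F test over the 4 ages edgeR called 71 of 81 members and 63.0% of all genes. Mean CPM was highest at E11 in 63 of the 81 tested members and lowest at E14 in 64. The same counts were not made over all genes, so they do not set the members apart.

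**Figure D3:**
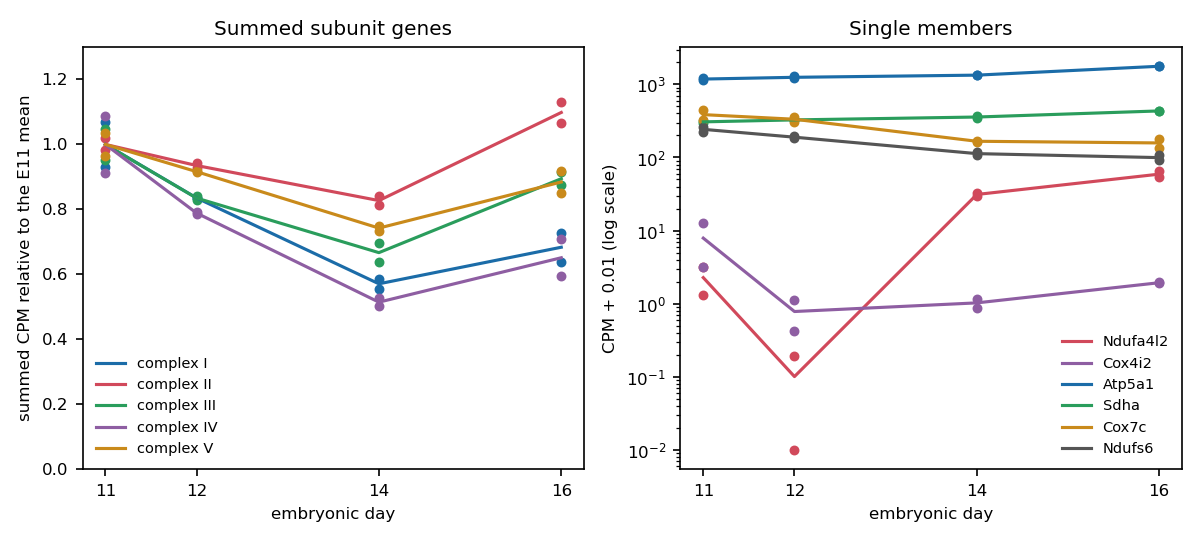
Left, summed CPM of each complex per library relative to its E11 mean; right, CPM of 6 members per library on a log axis with 0.01 added, both by embryonic day, with lines through the means of 2 libraries. Complexes I and IV lie lowest at E14 and remain under their E11 level at E16, complex II ends above it, and Ndufa4l2 climbs from E12 to E16.

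Between E11 and E16, 53 members fell and 8 rose, while 26.2% and 29.6% of all genes fell and rose (55.7% in either direction). The members' median log2 fold change was -0.58, beside 0.05 for all genes. By complex, 24 of 35 genes fell and 2 rose in complex I, 1 fell and 2 rose in complex II, 5 of 9 fell and 1 rose in complex III, 10 of 15 fell and 1 rose in complex IV, and 11 of 15 fell and 2 rose in complex V. The largest fall called was 2.44-fold, that of Cox7c.

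In complex I, Ndufs6, which carries a zinc site, was at 260 and 225 CPM at E11 and 91.8 and 107 CPM at E16 (log2 -1.29 ± 0.12 SE, adjusted p = 0.000108 by edgeR). Ndufc2, a membrane subunit, fell 2.43-fold. Cox7c, a small complex IV subunit, was at 451 and 321 CPM at E11 and at 136 and 180 CPM at E16 (log2 -1.29 ± 0.19 SE, adjusted p = 0.000866). Cox5a fell by 1.00 and Cox7a2 by 0.73 on the log2 scale, and the supercomplex factor Cox7a2l by 1.25. Among the 3 genes for subunit c, Atp5g2 fell 2.28-fold and Atp5g3 1.80-fold, while Atp5g1 was at 169 and 147 CPM at E11 and 141 and 154 CPM at E16 (adjusted p = 0.505). The E11 and E16 values overlap for Atp5g1 and are apart for the other two.

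Apart from Ndufa4l2, the rises were smaller than the falls just given. Atp5a1 was at 1155 and 1210 CPM at E11 and 1774 and 1765 CPM at E16 (log2 0.58 ± 0.07 SE, adjusted p = 0.000319). Sdha was at 296 and 318 CPM at E11 and 428 and 439 CPM at E16 (log2 0.50 ± 0.08 SE, adjusted p = 0.00145). With Ndufa4l2 these were the 3 of 8 rises kept when any 1 of the 8 libraries was left out. Uqcrc1 (log2 0.46), Ndufs1 (0.38), Ndufv3 (0.34), Sdhd (0.29) and Atp5b (0.18) were called with all libraries, at adjusted p from 0.0120 to 0.0415. Each of these 5 small rises was lost without at least 1 library, and the count of rises was 4 without E16 replicate 2 and 5 without either E14 library. Without E16 replicate 2, Ndufs1 (adjusted p = 0.0541), Ndufv3 (0.194), Sdhd (0.161) and Atp5b (0.108) missed the threshold. Uqcrc1 missed it without E16 replicate 1 (0.101) or E11 replicate 1 (0.0615). Without E11 replicate 2 Ndufv3 (0.160) and Sdhd (0.181) missed it, without E11 replicate 1 Atp5b (0.157), and without E16 replicate 1 Sdhd (0.0617). Ndufv3, Sdhd and Atp5b also missed it without either E14 library, at adjusted p of 0.0744 to 0.0837. Of the 53 falls, 39 were kept throughout.

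The isoforms linked to low oxygen had courses of their own. Ndufa4l2, a hypoxia-inducible relative of Ndufa4, had 35 and 99 counts at the first age, and 5 and 0 counts a day later. It then reached 680 and 790 counts at E14 and 874 and 857 counts at E16. In CPM it was at 1.32 and 3.21 at E11 and at 53.9 and 64.5 at E16 (log2 4.69 ± 0.55 SE, adjusted p = 0.000280). Ndufa4 itself was at 595 and 469 CPM at E11 and 243 and 307 CPM at E16, a 1.93-fold fall (adjusted p = 0.00111). The libraries of the first and last age are apart for both genes, in opposite directions. Cox4i2, the hypoxia-inducible isoform of Cox4i1, had 85 and 387 counts at E11 and 12 to 32 in each later library. Its fall to E16 was not called (adjusted p = 0.0673 by edgeR), but was without E11 replicate 1 (0.0143) and with DESeq2 (0.0307). Its common partner Cox4i1 was at 827 and 690 CPM at E11 and 514 and 562 CPM at E16 (log2 -0.50 ± 0.11 SE, adjusted p = 0.00632), a call lost without E16 replicate 1 (0.0529).

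Step by step, most falls were called between E12 and E14. From E11 to E12 edgeR called 2 members lower and none higher, beside 2.63% of all genes (1.76% higher and 0.874% lower). These were Ndufa4l2 (adjusted p = 0.0311) and Cox7b (adjusted p = 0.0215), named after their values were seen. Cox7b, a complex IV subunit encoded on the X chromosome, went from 439 and 382 CPM to 223 and 231 CPM. Neither call was kept in every left-out library: both failed without E12 replicate 2 or either E14 library (adjusted p 0.0650 to 0.0801). Cox7b failed without E12 replicate 1 (0.0729), and Ndufa4l2 without either E16 library (0.0761 and 0.0802). DESeq2 called 33 members lower and 0 higher at this step, with 14.8% of all genes called by it in either direction.

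From E12 to E14, 56 members fell and 1 rose, beside 13.9% and 14.4% of all genes (28.3% in either direction), with a members' median of -0.56. Cox7a2 went from 296 and 249 CPM to 150 and 148 CPM (log2 -0.87 ± 0.13 SE, adjusted p = 0.00332). Sdhb went from 312 and 303 CPM to 207 and 228 CPM (adjusted p = 0.00591), a call lost without E14 replicate 1 (0.0946). The riser was Ndufa4l2 (adjusted p = 0.000476). Without E14 replicate 1, 9 members were called lower and 10% of all genes were called, and without E14 replicate 2, 20 members and 11% of all genes. The members' median in these fits was -0.51 and -0.60, so fewer calls went with a similar fold. In the bin of shortest genes by span (up to 7086 bp), 21.2% of all genes fell and 6.86% rose at this step. Of its 38 members 30 fell, as did 19 of 28 in the next bin, where 16.4% of all genes fell. With the span offset 40 members fell, and the members' median was -0.40. The part of span in these falls was not tested further.

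From E14 to E16, 29 members rose and none fell, and 0 fell with DESeq2 either. Of all genes, 20.6% rose and 19.0% fell (39.6% in either direction). The members' median was 0.28. All 4 complex II genes rose, with 6 of 9 in complex III, 6 of 15 in complex IV, 4 of 15 in complex V and 9 of 35 in complex I. Cyc1 was at 241 and 241 CPM at E14 and 358 and 371 CPM at E16 (log2 0.60 ± 0.08 SE, adjusted p = 0.000981). Cox8a, the common complex IV isoform, rose 1.59-fold (adjusted p = 0.00241) and Cox6a1 1.53-fold (0.00313), both kept whichever library was left out. Sdha and Sdhb rose 1.21-fold and 1.22-fold, calls that failed without E14 replicate 1 (0.243 and 0.287), E14 replicate 2 (0.127 and 0.0982), E16 replicate 1 (0.0875 and 0.0572) or E16 replicate 2 (0.112 and 0.159). Sdhb also failed without either E11 library (0.0531 and 0.0525). Without E14 replicate 1, E14 replicate 2 or E16 replicate 2 the count of rises was 10, 12 or 12, while 20.2%, 20.8% and 23.4% of all genes were called in either direction, and the members' median was 0.21, 0.30 and 0.16. In all, 20 members fell from E12 to E14 and rose from E14 to E16. Both steps share the E14 libraries, so they are not independent, and no share of all genes doing both was taken.

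The E16 libraries also differed in makeup, and calls in marker lists against E14 stand beside 20.6% of all genes up and 19.0% down. Stromal markers summed to 6485 to 7858 CPM at E16 and 135 to 152 CPM at E14, with 7 of 8 called up and only Thy1 at 0 at E14. Muscle markers summed to 2927 to 3133 CPM against 53.6 to 61.7 CPM (7 of 7 up). Immune markers summed to 1413 to 1557 CPM against 26.4 to 29.3 CPM (8 of 10 up), with 5 of them at 0 at E14, among them Cd3e, Cd3g, S100a8 and S100a9. Colonocyte markers summed to 853 to 993 CPM against 114 to 129 CPM, and all 10 mitotic genes fell. Goblet cell markers summed to 4945 to 5056 against 35.3 to 36.9 CPM (6 of 7 up), deep crypt secretory markers to 3607 to 4261 against 352 to 353 CPM (7 of 8 up) and enteroendocrine markers to 808 to 853 against 1.26 to 8.34 CPM (9 of 9 up). Erythroid markers, of which only 2 could be tested and both rose, summed to 1481 to 1570 against 2.07 to 2.44 CPM, with the 4 globin genes of the list at 0 at both ages. Reads over more than one gene made up 3.09% and 3.501% at E16 and 0.81% to 0.87% at the other ages. The part of these shifts in the subunit genes was not tested.

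Other mitochondrial lists are read against the 29.6% of all genes that rose and the 26.2% that fell between E11 and E16. Mitochondrial ribosomal proteins fell in 60 of 77 genes and rose in none, led by Mrpl34 (log2 -1.68). Assembly factors fell in 20 and rose in 1 of 43, the rise being Cox15, which makes heme a (log2 0.70). TCA cycle enzymes rose in 7 and fell in 1 of 14, with Ogdh at 1.39. Biogenesis factors rose in 5 and fell in 7 of 18: the coactivator Ppargc1b rose by 3.79 and the nuclear receptor Esrra by 2.34. Glycolysis genes rose in 4 and fell in 7 of 20, and 6 of 20 fell from E11 to E12, where 0.874% of all genes did. From E11 to E16 the biogenesis and glycolysis lists thus changed in both directions, as all genes did. Ribosomal proteins and assembly factors changed almost only downward, and TCA cycle enzymes mostly upward.

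Single cells on day 8 of regeneration showed which cells held these RNAs. The matrix listed 85 members (Atp5sl was not matched, and the 2 features of Atp5o were summed). Of 3397 cells kept, with a median of 20640 UMIs, 15 clusters were made with the subunit genes and mitochondrially encoded genes left out, so the clusters were not chosen on them. With 1 library there is no test between conditions, and intervals are exact Poisson intervals of counting error only. Members took 4.30% of all UMIs.

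The share was highest in the 2 colonocyte-like clusters, at 6.96% and 6.22% (111 and 173 cells). These clusters had 11 and 9 of the colonocyte markers at more than 2-fold, with the antimicrobial genes Reg3b and Reg3g leading the first. The 3 mitotic-like clusters lay between 3.91% and 4.11%, the S phase-like cluster, led by the interferon-response gene Iigp1, at 3.88% and the 2 deep crypt secretory-like clusters at 4.00% and 3.95%. The largest mitotic-like cluster (512 cells) was led by replication histone genes, with 1 mitotic marker among its 10 leading genes and 9 of 10 at more than 2-fold. Deep crypt secretory-like cells were thus nearly level with proliferating ones. Lower shares were seen in enteroendocrine-like (3.5%, 19 cells), goblet-like (3.09%, 27 cells) and immune-like cells (2.22%, 35 cells with a median of 1933 UMIs). Of the unnamed clusters, those led by Reg3b (61 cells) and by gasdermin genes (121 cells) were at 4.92% and 5.03%. The others were at 4.12% (352 cells) and 4.10% (273 cells). The cluster of 273 cells had the stem cell markers Sox4 and Smoc2 among its 10 leading genes, with 2 markers of that list at more than 2-fold. Barcodes under 100 UMIs, which hold mostly free RNA, had 46565 CPM of members, more than most clusters and less than the colonocyte-like ones.

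**Figure D4:**
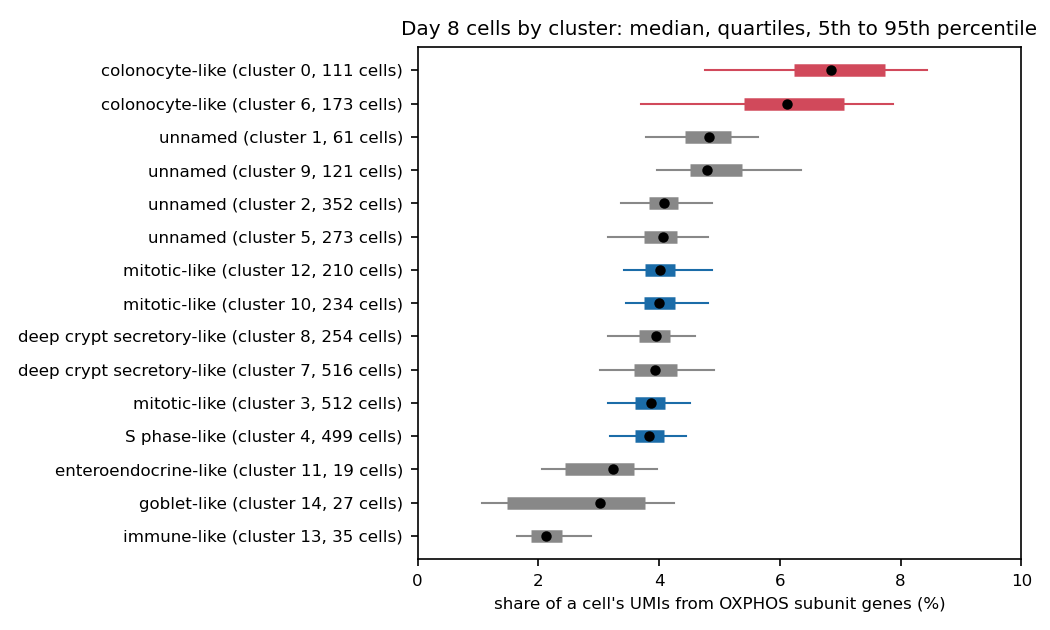
For each cluster of day 8 cells, the share of a cell's UMIs from the subunit genes in percent: black points are medians over cells, thick bars the quartiles and thin lines the 5th to 95th percentiles. The colonocyte-like clusters (red) have medians of 6.85% and 6.12%, while mitotic-like and S phase-like clusters (blue) have medians between 3.83% and 4.01%.

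Summed over cells, and with CPM now counting UMIs, the members had 64796 CPM in colonocyte-like (95% interval 64615 to 64978) and 40042 in mitotic-like cells (39970 to 40113), a ratio of 1.62. Complex IV had 21313 against 10726 CPM, complex I 16332 against 10840, complex III 8198 against 4989, complex V 17326 against 12226 and complex II 1223 against 808. Complex IV, the oxygen-reducing step, showed the widest gap. The RNAs encoded in mitochondrial DNA made up 7.90% and 8.85% of UMIs in the colonocyte-like clusters and 5.09% to 5.53% in the mitotic-like ones. A high mitochondrial share can also mark damaged cells. With cells above 10% mitochondrial UMIs removed, and with at least 3000 UMIs per cell required, the ratio was 1.5 and 1.49. Clusters were remade and renamed in these runs. They gave 337 and 424 colonocyte-like cells against 284, and 657 and 569 mitotic-like cells against 956, so the cells compared differ.

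Among 79 members with at least 200 UMIs, 74 had a ratio above 1, with a median of 1.47. Of 10461 genes with as many UMIs, 36.0% had a ratio above 1 and the median was 0.776. Without the histone-led cluster the ratio of the sums was 1.58, and again 74 of 79 members lay above 1 (median 1.45). The medians by complex were 2.01 for IV, 1.47 for V, 1.38 for III, 1.37 for I and 1.34 for II. Cox7a1 stood highest at 6.01 (89.0 against 14.8 CPM, interval of the ratio 5.33 to 6.78), and it was at 172 CPM in goblet-like and 41.1 in deep crypt secretory-like cells. Ndufa6, a complex I subunit, followed at 2.73 (925 against 339) and Uqcrb at 2.59 (1505 against 581). So 1 rare isoform and 2 common subunits led the list. At the low end were Cox6b2 (0.0318, 0.132 against 4.16 CPM), Atp5s (0.588) and Ndufa4 (0.839). The other members below 1 were Atp5g2 and Cox7a2l (0.848 and 0.897), named after their values were seen.

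**Figure D5:**
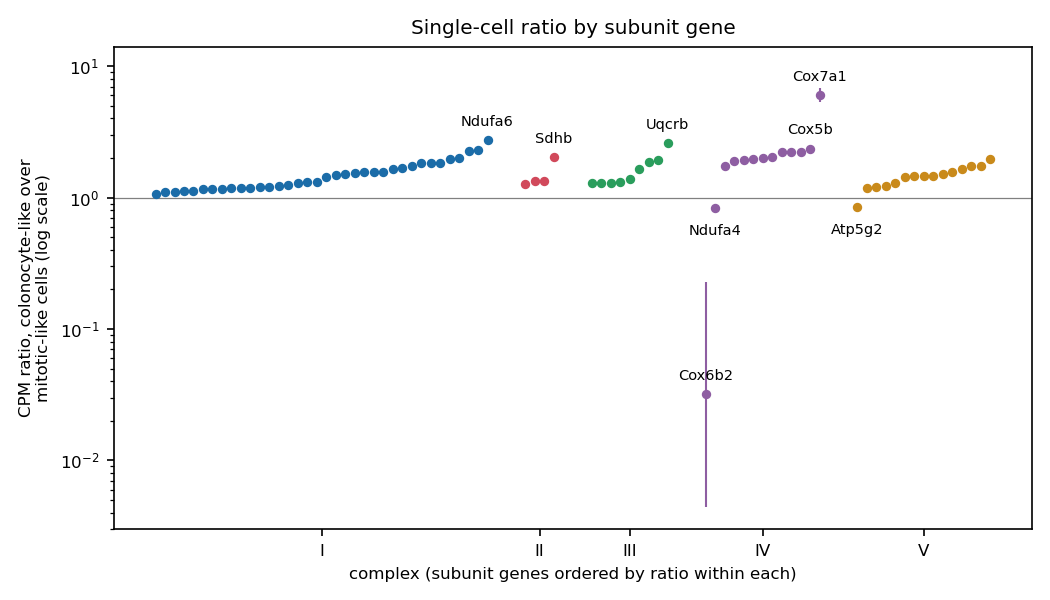
The ratio of CPM in colonocyte-like over mitotic-like cells for each subunit gene with at least 200 UMIs, ordered within complexes I to V on a log axis, with 95% counting intervals. Nearly all points lie between 1 and 3, with Cox7a1 at 6.01 above them and Cox6b2 at 0.0318, Ndufa4 at 0.839 and Atp5g2 at 0.848 below 1.

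Since UMIs count molecules whatever their length, levels of isoforms can be set side by side in single cells. Over all cells Cox8a (1968 CPM) and Cox4i1 (1913) were highest, followed by Cox5a (1349) and Atp5g1 (1251). Cox7a2 was at 836 and Cox7a1 at 26.7, Cox6b1 at 840 and Cox6b2 at 3.35, and Ndufa4 at 535. The tissue-restricted isoforms Cox4i2, Cox6a2 and Ndufa4l2 had 13, 11 and 2 UMIs in all, and Cox7b2 and Cox8c had 0. Cox8b had 39 UMIs. Of the genes for subunit c, Atp5g1 stood at 1251, Atp5g2 at 973 and Atp5g3 at 675. In colonocyte-like against mitotic-like cells Atp5g1 and Atp5g3 had ratios of 1.47 and 1.58 and Atp5g2 of 0.848, so the 3 genes for 1 protein differed in direction.

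Sdha, Sdhc, Ndufs1 and Atp5b, the 4 members that fell in KO cells, had colonocyte-like to mitotic-like ratios of 1.33, 1.34, 1.15 and 1.18. These lie above 1, as do 74 of the 79 members with at least 200 UMIs, and below the members' median of 1.47. The other mitochondrial lists differed between the same cells. Mitochondrial ribosomal proteins had 6947 CPM in colonocyte-like and 9277 in mitotic-like cells, and biogenesis factors 519 against 628. Assembly factors were level at 2358 against 2349, with overlapping intervals. TCA cycle genes had 2752 against 2537, glycolysis genes 7134 against 4212 and mitochondrial carriers with their partners 8039 against 4969 CPM.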

How the data were processed

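Raw read counts per gene were deposited for 15 bulk libraries; per the submitters' processing notes, tools include STAR 2.5.3a, HTSeq and DESeq2 and builds GRCm38 and mm10. The deposited single-cell UMI counts come from Cell Ranger 3.0.2 per the submitters' processing notes. Annotation release and strand setting are not given in the sources used here. The 3 ChIP-seq samples were not analysed here.

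Adult (7) and hindgut (8) libraries, made with different kits, were fitted separately with group as the term: filterByExpr, TMM, glmQLFit and glmQLFTest (edgeR 4.0.16, R 4.3.3), where p-values were two-sided and adjusted by Benjamini-Hochberg across every gene tested. Entries of the table that name no gene stayed out of library sizes; reads without a feature made up 5.77% to 9.77%.

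Cells needed 1000 UMIs, 500 genes and at most 20% mitochondrial UMIs (207 removed by the last), and were clustered with scanpy 1.11.5 (2000 variable genes, 30 components, Leiden resolution 0.8). A doublet caller marked 0 cells, so removal of the top 5% of doublet scores was tried. Clusters were named only from listed markers.

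Genes always followed were Ndufs1, Ndufv1, Sdha, Sdhb, Uqcrc1, Uqcrfs1, Cyc1, Cox5a, Atp5b and the isoform pairs, with the 5 largest called rises and falls at 10 CPM or more per main comparison (all where 10 or fewer were called), the 2 largest of each other list, and the 3 highest and lowest single-cell ratios. The members and lists were chosen with earlier results of these data known. Some items are not reported here. The tests were tried on simulated data.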

Additional observations from a re-analysis of the deposited data

How the results depend on the processing

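The 2 or 3 libraries per group limit precision, and bulk counts of members with near-identical copies are uncertain. The count of 67 rises in KO against wild type lay between 59 and 68 in every alternative run. Library size scaling gave 10 falls against wild type and 10 against regenerating cells, where leaving out 1 library gave 2 to 4. For E16 against E11, 5 members rose with library size scaling, without the low-count filter, with the replicate block and with only the 2 groups, and 4 to 8 with 1 library left out. From E11 to E12, DESeq2 called 33 members lower, the 2 groups alone 1, and fits without 1 library 0 to 5. From E12 to E14 the span offset gave 2 rises, and falls were 9 to 57 without 1 library. From E14 to E16 DESeq2 gave 48 rises, fits without 1 library 10 to 28 rises and 0 to 2 falls, and library size scaling and the span offset 1 fall each. The replicate block gave 67 rises and 4 falls in KO against wild type and apart from the E16 rises above, moved no count by over 1.5 times. The span offset gave 40 falls from E12 to E14 and 45 from E11 to E16, where 56 and 53 were called without it. Deviations of same-numbered samples correlated at -0.07 to 0.13, which cannot show whether same-numbered libraries were handled together. Signs turned for 3 uncalled genes in KO against wild type. With 1 library left out, Ndufv1 ranged from -0.29 to 0.086 on the log2 scale, Uqcrc1 from -0.17 to 0.44 and Cox8b from -4.49 to 4.57. With library size scaling Uqcrc1 was at -0.82; the cause was not tested. The colonocyte-like to mitotic-like ratio of 1.62 was 1.49 with a UMI minimum of 3000 and 1.5 with a mitochondrial maximum of 10%. At resolution 0.4 it was 1.56. It was 1.64 without the top 5% of doublet scores and 1.58 without the histone-led mitotic-like cluster, both chosen after seeing the data. All but the last of these runs remade and renamed the clusters, so the cells compared differ between them.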
